A study of Homo sapiens with 4 samples.

Results

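Genes that mark early blood cells or their lineages, 10 in all (RHAG, KLF1, HBE1, GFI1, GFI1B, MYB, SPI1, VAV1, PTPRC and LCP1), were followed in H1 human embryonic stem cells differentiating toward blood. They were chosen by name, as the Entrez gene IDs that map to these 10 symbols, out of 19390 gene IDs listed in any library. H1 is an established, pluripotent line, labelled here as wild type. RNA was sequenced at days 0, 2, 3 and 4, with 1 library for each day. For the first 2 days the protocol in the labels used 40 ng/ml activin A with 50 ng/ml BMP4. For the next 2 days it used 40 ng/ml VEGF with 50 ng/ml bFGF. Day 0 is the undifferentiated starting culture. The labels name no sort, so each library is read as the RNA of a whole culture.

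The first blood cells of the embryo arise from mesoderm, in close relation to the endothelium that lines vessels. Their path is steered by transcription factors: KLF1 drives the red cell programme, GFI1 and GFI1B are related repressors that silence endothelial genes as blood cells emerge, MYB supports progenitors, and SPI1 (PU.1) directs myeloid and lymphoid fates. The rest are proteins of the blood cells themselves. RHAG is a membrane protein of the red cell, HBE1 is the embryonic beta-like globin, VAV1 relays signals from immune receptors, PTPRC is the leukocyte surface phosphatase CD45, and LCP1 (L-plastin) bundles actin in leukocytes.

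Depth was even, with 5.04 to 5.49 M expected counts in a library, and a single read made 0.182 to 0.196 CPM, the count scaled to a total of 1 M. CPM were computed on scaled library totals and are given with exact Poisson 95% intervals. Ratios carry exact 95% intervals from the conditional binomial, and both kinds of interval cover counting error only. With 1 library a day, no difference between days has a replicate check and no p-value is given. A call of higher or lower needed 1 CPM or more on one of the days compared and a difference of 1 or more in log2(CPM + 1), which is 2-fold on that scale. A count of 0 allows a level of up to 3 counts, 0.545 to 0.588 CPM in these libraries. Against a count of 0, a fold is the measured level divided by that limit, and is written with the words at least. It leaves out the counting error of the measured level, so it is not a 95% bound. The labelled cells matched their markers at the start: the pluripotency gene POU5F1 had 940 CPM at day 0, 404 CPM at day 2, 204 CPM at day 3 and 126 CPM at day 4.

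At day 4 all 10 genes were listed with at least 1 read, and all 10 had more than 3 counts. The genes with more than 3 counts numbered 4 at day 0, 5 at day 2 and 6 at day 3. Those of at least 1 CPM numbered 4, 4, 5 and 7 at days 0, 2, 3 and 4. Summed over the 10, the level was 24.6, 93.2, 92.4 and 134 CPM, and LCP1 alone held 81.4 of the 93.2 CPM at day 2. In RNA of whole cultures, more cells of a type and more RNA per cell cannot be told apart.

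**Figure D1:**
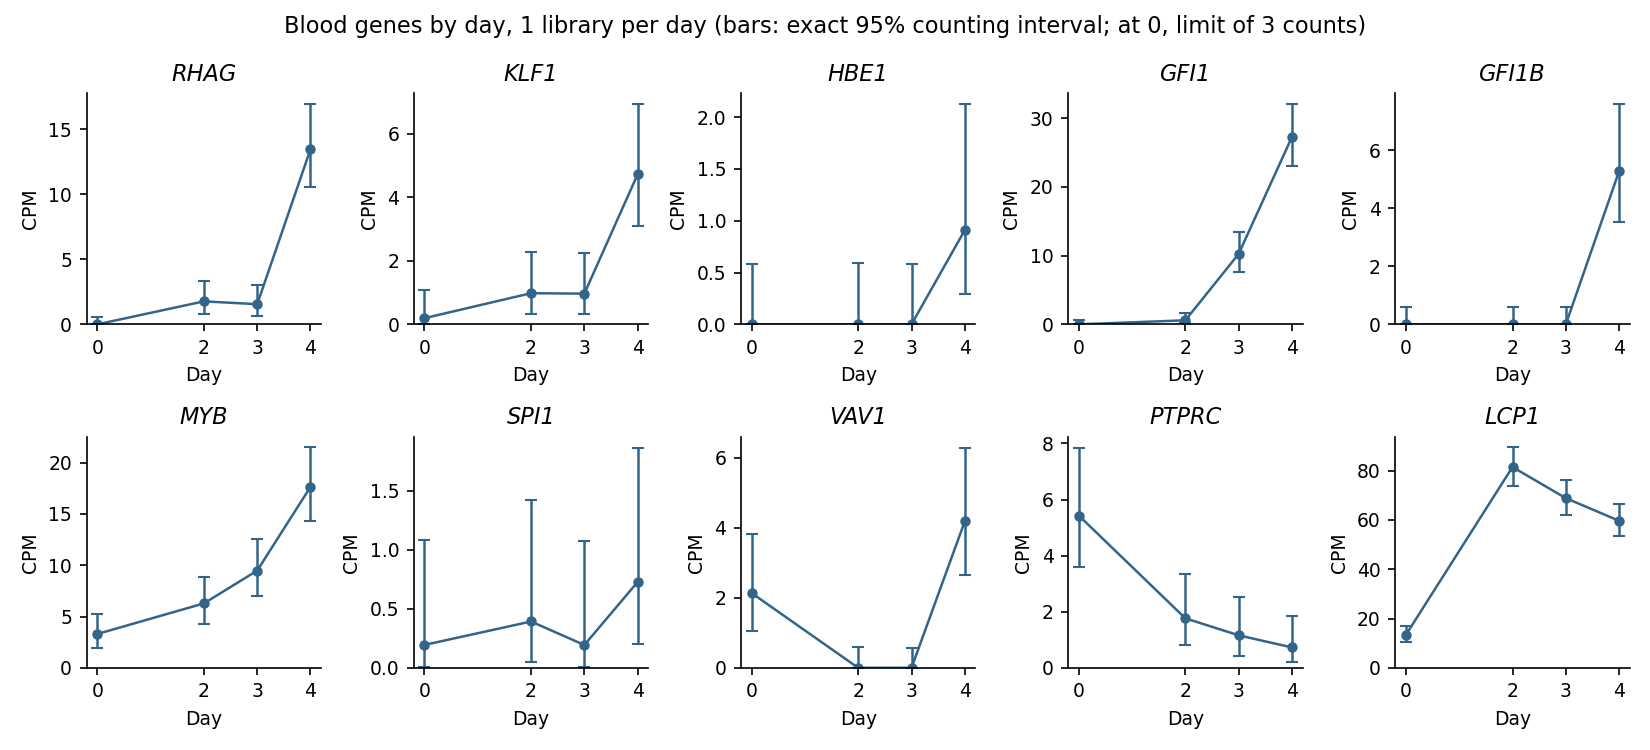
CPM of each of the 10 genes (vertical axis, a scale of its own for each gene) by day, with exact Poisson 95% intervals, or the limit of 3 counts where the count is 0 (1 library a day). GFI1, RHAG, KLF1, GFI1B and MYB have their highest value at day 4, LCP1 at day 2 and PTPRC at day 0, and VAV1 is at 0 at days 2 and 3.

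Against day 0, the day 4 library had 6 of the 10 genes higher (RHAG, LCP1, KLF1, MYB, GFI1 and GFI1B) and 1 lower (PTPRC). VAV1 stayed within the threshold, and HBE1 and SPI1 did not reach 1 CPM in either library. Of the 15652 genes that reached 1 CPM on one of these days, 16.1% were called higher and 11.9% lower in the same comparison. From day 0 to day 2, under activin A and BMP4, RHAG and LCP1 were higher and VAV1 and PTPRC lower at day 2, so 2 of 10 were called each way, where 12.9% of all tested genes were called higher and 8.81% lower. Under VEGF and bFGF, day 4 against day 2, 6 of the 10 were higher (RHAG, VAV1, KLF1, MYB, GFI1 and GFI1B) and none was lower, where 8.18% of tested genes were higher and 7.6% lower. Within that step, only GFI1 was called at day 3 against day 2, as higher, with 5.82% of tested genes higher and 3.51% lower. At day 4 against day 3 the genes called were RHAG, VAV1, KLF1, GFI1 and GFI1B, 5 of 10 and all higher, while 2.96% of tested genes were higher and 4.25% lower. Of the 10 genes, 5 reached 1 CPM at day 2 or day 0 and 5 at day 3 or day 2, and 8 did so in each comparison with day 4. A gene at or near 0 on the earlier day could only enter by being higher on the later one. With a pseudocount of 5 in place of 1, the calls of KLF1 and VAV1 at day 4 against day 2, of KLF1 and PTPRC at day 4 against day 0, and of RHAG, VAV1 and PTPRC at day 2 against day 0 were lost.

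RHAG (Entrez 6005), the Rh-associated glycoprotein that anchors the Rh complex and carries ammonium in red cells, had 0, 9, 8 and 74 counts at days 0, 2, 3 and 4. That is 0 CPM at day 0 (up to 0.582), 1.77 CPM (0.807 to 3.35) at day 2, 1.55 CPM (0.668 to 3.05) at day 3 and 13.4 CPM (10.6 to 16.9) at day 4. Day 4 stood above all 3 earlier days and its interval overlapped none of theirs, while days 2 and 3 were alike. It was 8.70-fold higher at day 4 than at day 3 (4.19 to 20.9), and day 4 exceeded day 0 at least 23.1-fold. Day 3 over day 2 gave a ratio of 0.876 (0.294 to 2.56), which does not show a difference in either direction. Among the 15367 genes tested between days 4 and 3, 26 had a larger increase on the log2(CPM + 1) scale.

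KLF1 (Entrez 10661), the erythroid Krüppel-like factor that activates globin and red cell membrane genes, had 1, 5, 5 and 26 counts at days 0, 2, 3 and 4. The levels were 0.194 CPM (0.00491 to 1.08), 0.981 CPM (0.318 to 2.29), 0.966 CPM (0.314 to 2.26) and 4.73 CPM (3.09 to 6.92). As with RHAG, days 2 and 3 were alike and day 4 lay above both without overlap. KLF1 was 4.89-fold higher at day 4 than at day 3 (1.85 to 16.3), with 125 of 15367 tested genes showing a larger increase. The ratio of day 4 to day 0 was 24.4 with a wide interval, 4.00 to 999, because day 0 held 1 read.

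HBE1 (Entrez 3046), the epsilon globin of embryonic red cells, was at 0 at days 0, 2 and 3 and had 5 counts at day 4. Its day 4 level of 0.909 CPM (0.295 to 2.12) overlapped the limit of 0.582 CPM that the 0 at day 0 allows, so the difference was not detectable beyond counting error at this depth. On the deposited FPKM, which divides by length and was 1.15 at day 4, it was called higher at day 4 against day 2 and against day 0, by 1.10 on the log2(FPKM + 1) scale. In all, 36 genes had 0 counts on the 3 earlier days and at least as many as HBE1 at day 4. Of the exon bases that GENCODE annotates for HBE1, 81.3% are also annotated there to another gene model on the same strand. The deposited count of HBE1 was made on 1 RefSeq transcript. Whether any of these 5 reads came from that other model cannot be told. Other globins were at or near 0 at day 4. HBZ, the embryonic alpha-like globin, had 0 counts on all 4 days. The globin genes HBA2, HBB, HBD, HBG1 and HBM were likewise at 0 throughout. HBG2 had 0, 1, 0 and 1 counts. HBA1, near-identical to HBA2, had 11, 2, 0 and 0 counts at days 0, 2, 3 and 4.

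GFI1 (Entrez 2672), a zinc-finger repressor that recruits the demethylase KDM1A to its targets, had the largest difference of the group. Its counts were 0, 3, 53 and 150 at days 0, 2, 3 and 4, or 0, 0.588 CPM (0.121 to 1.72), 10.2 CPM (7.67 to 13.4) and 27.3 CPM (23.1 to 32.0). Each of days 3 and 4 stood clear of the day before it, and GFI1 was the one gene of the 10 with calls at both single-day steps. It was 17.4-fold higher at day 3 than at day 2 (5.64 to 87.1) and a further 2.66-fold higher at day 4 than at day 3 (1.93 to 3.71). Of the 15286 genes tested between days 3 and 2, 57 had a larger increase, and of the 15406 tested between days 4 and 2, 34 did. Against day 0, GFI1 was at least 46.9-fold higher at day 4.

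GFI1B (Entrez 8328), its paralog, which acts in red cell and megakaryocyte precursors, was at 0 at days 0, 2 and 3 and had 29 counts at day 4. The day 4 level was 5.27 CPM (3.53 to 7.57), against limits of 0.58 and 0.588 CPM for the 0 at days 3 and 2, so day 4 lay apart. Day 4 exceeded day 3 at least 9.09-fold, and 18 of 15367 tested genes had a larger increase. A total of 382 genes had 0 counts on the 3 earlier days and at least 1 at day 4, but only MMRN1, a protein of platelets and endothelium, shared this pattern with a day 4 count as high as that of GFI1B. TSC1 lies on the opposite strand and shares 349 bases, 5.72%, of the GFI1B exons. The sources used here do not state that reads were counted by strand, so reads in that stretch cannot be assigned to one gene.

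MYB (Entrez 4602), which keeps blood progenitors dividing, differed from the other factors in being present at day 0 and higher on each later day. It had 17, 32, 49 and 97 counts, or 3.30 CPM (1.92 to 5.28), 6.28 CPM (4.29 to 8.86), 9.47 CPM (7.01 to 12.5) and 17.6 CPM (14.3 to 21.5), at days 0, 2, 3 and 4. Only day 4 was separate from all other days, while days 0 and 2, and days 2 and 3, had overlapping intervals. The single steps were small, with ratios of 1.90 (1.03 to 3.66) for day 2 over day 0, 1.51 (0.947 to 2.43) for day 3 over day 2 and 1.86 (1.31 to 2.68) for day 4 over day 3. Over the whole course MYB was 5.35-fold higher at day 4 than at day 0 (3.17 to 9.55). Its antisense gene MYB-AS1 shares 103 bases, 1.88%, of its exons.

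SPI1 (Entrez 6688), the ETS-family factor PU.1, had 1, 2, 1 and 4 counts at days 0, 2, 3 and 4. The highest level, at day 4, was 0.727 CPM (0.198 to 1.86), and the ratio of day 4 to day 0 was 3.75 (0.371 to 185). All 4 days overlapped, and no difference was detectable at this depth. SPIB, the related ETS factor of B cells, went the other way: it had 22.3, 5.49, 6.57 and 1.82 CPM at days 0, 2, 3 and 4, and was 12.3-fold lower at day 4 than at day 0 (6.44 to 26.3).

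VAV1 (Entrez 7409), a signalling protein of blood cells, was listed at both ends of the course and not between. It had 11, 0, 0 and 23 counts at days 0, 2, 3 and 4, or 2.13 CPM (1.06 to 3.82) at day 0, 0 CPM at days 2 and 3, and 4.18 CPM (2.65 to 6.27) at day 4. The intervals of days 0 and 4 overlapped each other, and both lay above the limits of 0.588 and 0.58 CPM for the 0 at days 2 and 3. VAV1 was at least 3.62-fold lower at day 2 than at day 0, and day 4 exceeded day 3 at least 7.21-fold. The ratio of day 4 to day 0 was 1.96 (0.918 to 4.45). Only 1 other gene model, CORO7-PAM16, had 0 counts at days 2 and 3 with counts at least those of VAV1 at days 0 and 4. The paralogs of wider expression had no such gap in both: VAV2 had 63.8, 47.9, 76.3 and 68.2 CPM, and VAV3 had 19.0, 4.90, 13.5 and 24.5 CPM. VAV3 too was lowest at day 2, and it was called higher at day 4 than at day 2, by 2.11 on the log2(CPM + 1) scale.

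PTPRC (Entrez 5788) differed the other way. It had 28, 9, 6 and 4 counts at days 0, 2, 3 and 4, or 5.43 CPM (3.61 to 7.85), 1.77 CPM (0.807 to 3.35), 1.16 CPM (0.426 to 2.52) and 0.727 CPM (0.198 to 1.86). Day 0 stood above the later days, which overlapped one another. PTPRC was 7.47-fold lower at day 4 than at day 0 (2.61 to 29.3) and 3.08-fold lower at day 2 than at day 0 (1.41 to 7.41). Counted over all its transcripts together, the RNA of PTPRC was thus highest before differentiation began. Of 15652 tested genes, 598 had a larger decrease at day 4 against day 0. The surface protein was not measured.

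The deposited transcript length of PTPRC differed between days as well. It was 1595.01, 1599.76, 1669.33 and 4946 bases at days 0, 2, 3 and 4, a ratio of 3.10 for day 4 over day 0. The same 4 transcripts were listed for the gene on every day, with annotated lengths of 1017, 1338, 4753 and 5390 bases. The deposited length was nearest to 1338 bases at days 0, 2 and 3, and lay between 4753 and 5390 bases at day 4. The counts are for the gene as a whole, so a decrease of the long transcripts was not tested. Of 16337 genes listed at both days 4 and 0, 22 (0.135%) had lengths at least 2-fold apart and 4 had a ratio at least that of PTPRC. Since FPKM divides by length, FPKM of PTPRC was 0.15 at day 4 and 3.51 at day 0, 23.4-fold apart, where the CPM ratio was 7.47. The day 4 length rests on 4 reads.

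**Figure D2:**
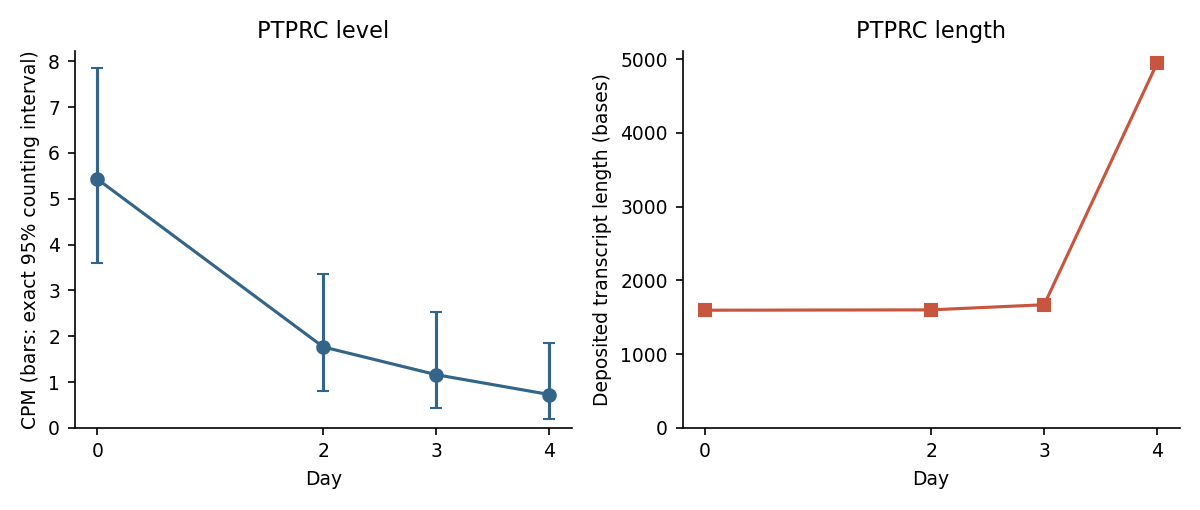
CPM of PTPRC with exact Poisson 95% intervals (left, 1 library a day) and the length the deposited files give for its transcripts, in bases (right), at days 0, 2, 3 and 4. The level is 5.43, 1.77, 1.16 and 0.727 CPM, and the length is 1595.01 to 1669.33 bases on the first 3 days and 4946 bases at day 4.

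LCP1 (Entrez 3936) was the gene of the 10 that differed most at the first step. It had 69, 415, 356 and 328 counts at days 0, 2, 3 and 4, or 13.4 CPM (10.4 to 16.9), 81.4 CPM (73.8 to 89.6), 68.8 CPM (61.8 to 76.3) and 59.6 CPM (53.3 to 66.4). The 3 later days all stood far above day 0, with day 2 the highest. LCP1 was 6.08-fold higher at day 2 than at day 0 (4.71 to 7.97), before VEGF and bFGF were given, and 4.46-fold higher at day 4 than at day 0 (3.43 to 5.86). Within the second step it was 1.37-fold lower at day 4 than at day 2 (1.18 to 1.58), short of a call. Of its paralogs, which bundle actin outside blood, PLS3 had 275, 284, 289 and 269 CPM, a ratio of 0.977 for day 4 over day 0 (0.908 to 1.05). PLS1 was 4.13-fold lower at day 4, with 14.2 CPM, than at day 0, with 58.6 CPM (3.21 to 5.37).

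Promoters were read for every one of the 10 genes with an entry. Of the 10, 8 have entries in the RefSeq table of GRCh38.p14, 11 entries in all. As examples, 3 windows of 250 bases just before a gene's start are shown that hold matches to words of blood factors. Such matches do not set these 3 apart, since windows of RHAG, GFI1B, LCP1, PTPRC and MYB hold some too. Each window shown runs 5′ to 3′ on the strand of its gene. Capitals mark matches on either strand to a GATA word (AGATAA or AGATAG or TGATAA or TGATAG), an ETS word (AGGAAG), a RUNX word (TGTGGT) or a KLF word (CCNCNCCC). The first is KLF1 at chr19:12887202-12887451, minus strand, the second GFI1 at chr1:92486100-92486349, minus strand, and the third VAV1 at chr19:6772458-6772707, plus strand.
KLF1: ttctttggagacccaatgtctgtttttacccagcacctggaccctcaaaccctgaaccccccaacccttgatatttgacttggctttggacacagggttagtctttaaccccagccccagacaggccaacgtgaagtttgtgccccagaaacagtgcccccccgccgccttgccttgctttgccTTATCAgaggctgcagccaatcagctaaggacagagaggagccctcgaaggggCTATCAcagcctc
GFI1: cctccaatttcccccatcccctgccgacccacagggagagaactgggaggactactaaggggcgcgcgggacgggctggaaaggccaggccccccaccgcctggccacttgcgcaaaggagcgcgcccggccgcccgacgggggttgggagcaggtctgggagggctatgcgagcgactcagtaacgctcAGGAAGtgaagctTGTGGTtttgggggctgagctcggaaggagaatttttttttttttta
VAV1: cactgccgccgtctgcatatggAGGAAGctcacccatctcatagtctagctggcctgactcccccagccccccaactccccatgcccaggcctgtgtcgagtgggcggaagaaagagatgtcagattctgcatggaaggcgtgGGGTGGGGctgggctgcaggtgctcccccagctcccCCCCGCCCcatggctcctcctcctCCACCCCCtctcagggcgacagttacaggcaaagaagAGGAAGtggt

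The KLF1 window holds 2 GATA matches, 66 and 13 bases before the start. Of 35116 promoter windows of the same length, 22.3% hold at least 1 GATA word, and of the 11 entries for these genes 3 do: KLF1, RHAG (31 bases before the start) and 1 of the starts of GFI1B (116 bases before). These 3 genes are called higher at day 4 against day 3, and so are GFI1 and VAV1, whose windows hold no GATA word. The GFI1 window holds an ETS match 60 bases and a RUNX match 47 bases before the start. ETS words are in 28.7% of all windows and in 5 of the 11, and RUNX words in 10.98% of all and in 2 of the 11, the second being LCP1. The VAV1 window holds ETS matches 228 and 10 bases before the start and KLF matches at 107, 71 and 47 bases. KLF words are common, in 53.4% of all windows and 6 of the 11. The E-box word CAGNTG, not capitalised, is in 42.5% of all windows and 5 of the 11. These are matches of letters and say nothing of binding.

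The genes were also ordered by their day 3 level as a percentage of the level at day 4, the last day sampled. LCP1 was at 115% (99.1 to 135), MYB at 53.7% (37.3 to 76.5), GFI1 at 37.6% (26.9 to 51.7), KLF1 at 20.4% (6.13 to 54.1) and RHAG at 11.5% (4.79 to 23.9). VAV1 and GFI1B were at 0 at day 3, which allows up to 13.9% of the day 4 level of VAV1 and less for GFI1B. The intervals of MYB and GFI1 overlap, as do those of GFI1 and KLF1 and of KLF1 and RHAG, but RHAG, VAV1 and GFI1B lie below GFI1, MYB and LCP1 without overlap. The upstream factors RUNX1, at 48.1% (38.0 to 60.5), TAL1, at 43.9% (37.0 to 51.9), and LMO2, at 36.5% (30.3 to 43.9), lay in the range of GFI1 and MYB. Of the pan-leukocyte list, the 4 genes with the largest difference at day 4 against day 0 had lower percentages. BTK was at 22.9% (16.0 to 32.1), LCP2 at 16.5% (6.29 to 37.0), LAPTM5 at 14.5% (10.7 to 19.2) and ARHGDIB at 12.3% (6.97 to 20.4). The intervals of BTK and LCP2 overlap those of GFI1 and LMO2. These 4 were named for that difference, so they do not stand for the whole list. Endothelial genes were spread over the range, with CD34 at 44.4% (38.6 to 50.9), CDH5 at 24.1% (19.3 to 29.9) and PECAM1 at 13.3% (9.36 to 18.4). GATA1, the partner and activator of KLF1 in red cells, had 0, 0, 0 and 10 counts, the same pattern as GFI1B, with 1.82 CPM at day 4.

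**Figure D3:**
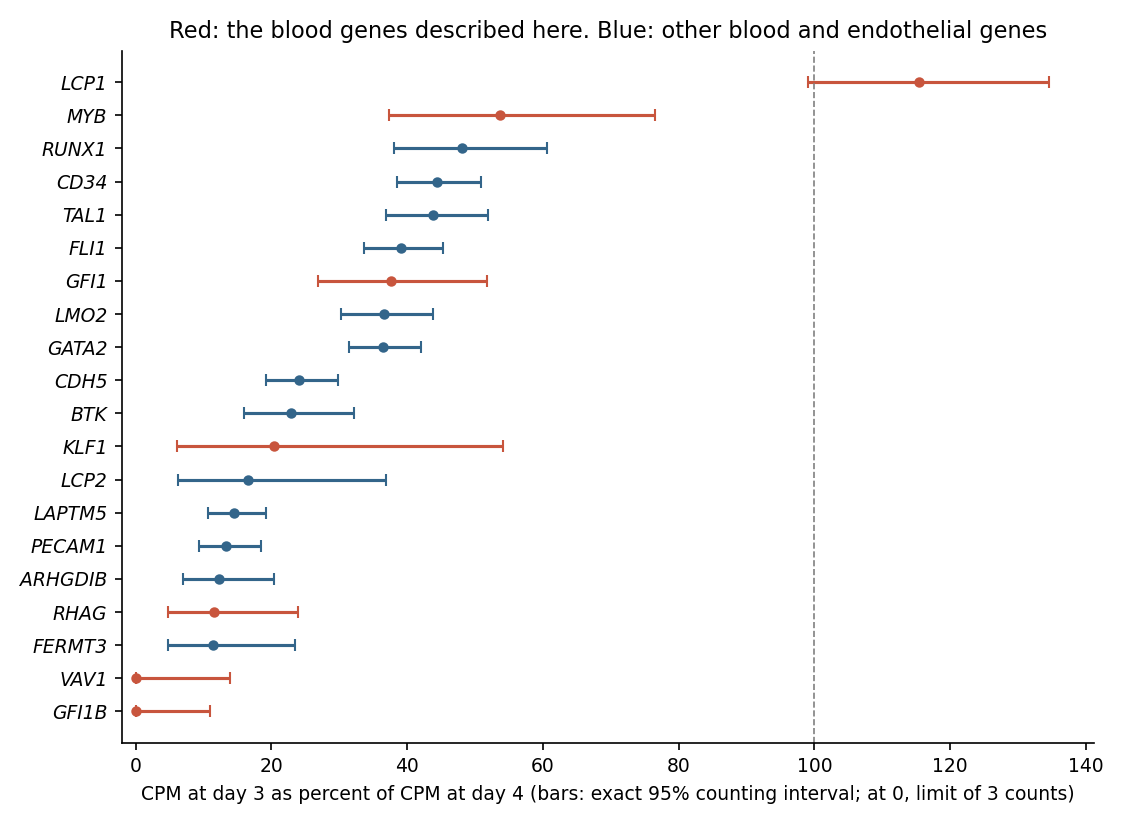
Day 3 level as a percentage of the day 4 level for the blood genes and for other blood and endothelial genes, with exact 95% intervals for counting error, or the limit of 3 counts where day 3 is 0 (1 library a day). Genes with few counts at day 4 are not drawn: PTPRC with 4, SPI1 with 4, HBE1 with 5 and GATA1 with 10. GFI1 and MYB lie with RUNX1, TAL1 and LMO2 near 36 to 54%, RHAG lies near 11.5%, and GFI1B and VAV1 are at 0 at day 3.

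Levels of different genes were compared per transcript length, as FPKM deposited by the authors. At day 4, LCP1 had the highest FPKM, 15.6 (14.0 to 17.4), at the 75.4th percentile of listed genes, and it stood apart from the next, GFI1, with 10.04 FPKM (8.50 to 11.8). Below them came RHAG with 6.92 FPKM (5.43 to 8.69), MYB with 5.06 FPKM (4.10 to 6.17), GFI1B and KLF1 with 2.95 FPKM each, and VAV1 with 1.47 FPKM (0.932 to 2.21). HBE1 had 1.15 FPKM (0.373 to 2.68), SPI1 0.52 FPKM (0.142 to 1.33) and PTPRC 0.15 FPKM (0.0409 to 0.384). Apart from LCP1 and GFI1, each neighbour in this order overlapped the next. The order at day 0 was LCP1 with 3.58 FPKM and PTPRC with 3.51 FPKM, which overlapped, then MYB with 1.01, VAV1 with 0.77, SPI1 with 0.14 and KLF1 with 0.12 FPKM. The remaining 4 genes were at 0 at day 0.

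**Figure D4:**
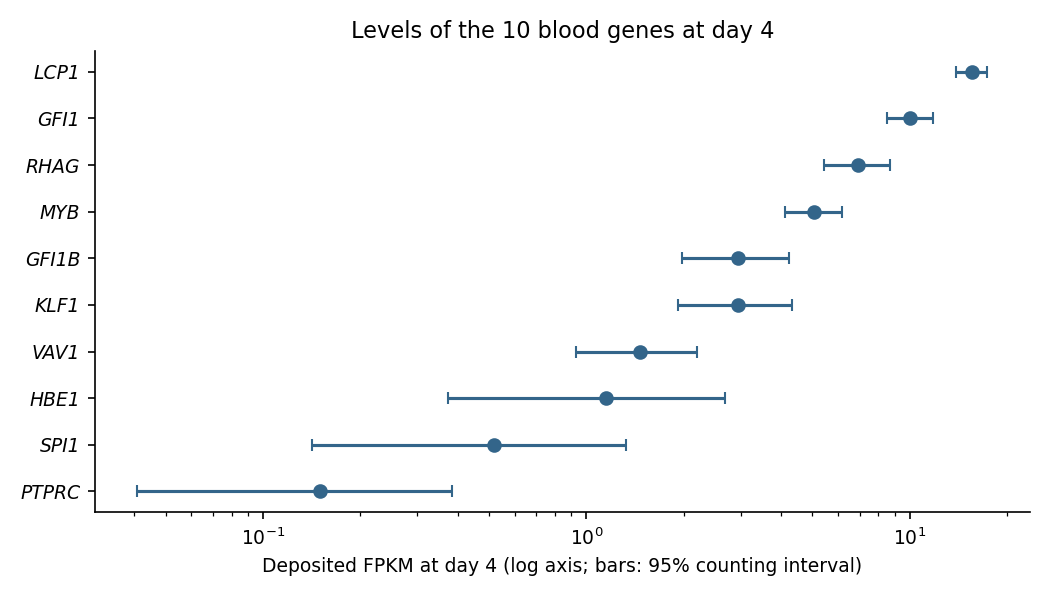
Deposited FPKM of the 10 genes at day 4 on a log axis, from highest to lowest, with intervals for counting error scaled from the counts (1 library). LCP1 is highest at 15.6 FPKM and PTPRC lowest at 0.15 FPKM.

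The genes around these 10 in each lineage moved in part. Lists of lineage genes, which leave out the 10, were read by the same 2-fold rule. The median difference over all tested genes at day 4 against day 0 was 0.03 on the log2(CPM + 1) scale. In that comparison 16.1% of all tested genes were higher and 11.9% lower, the shares to set beside each list below. Of 30 red cell genes, 16 reached 1 CPM, 5 were higher and 3 lower at day 4 than at day 0, with a median difference of 0.51. KEL, the Kell blood group protease, had 0.582, 23.9, 51.99 and 56.3 CPM at days 0, 2, 3 and 4. NFE2, a factor of red cell and platelet precursors, was 5.49-fold higher at day 4 than at day 0 (2.44 to 14.5). ALAS2, which begins heme synthesis in red cells, had 1, 9, 1 and 7 counts.

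Of 15 megakaryocyte and platelet genes, 8 were tested, with a median difference of 0.93. At day 4 against day 0, 4 were higher and 1 was lower, where 16.1% of all tested genes were higher and 11.9% lower. The integrin chain ITGA2B (CD41) had 1.94, 1.57, 1.74 and 5.63 CPM at days 0, 2, 3 and 4 and was 2.91-fold higher at day 4 than at day 0 (1.39 to 6.64). VWF, the clotting factor made by endothelium and platelets, was 25.7-fold higher (10.7 to 80.3). The platelet markers GP9 and PF4 had no count at day 4. Of the 29 pan-leukocyte genes, 22 were tested, 8 were higher and 2 lower, with a median of 0.55. BTK, a kinase of B cells and myeloid cells, had 0.194, 2.55, 8.12 and 35.4 CPM at days 0, 2, 3 and 4. LAPTM5, a lysosomal protein of blood cells, had 1.94, 1.18, 10.6 and 73.4 CPM and was 62.4-fold higher at day 4 than at day 2 (28.4 to 171). CORO1A, an actin regulator of leukocytes, was 3.37-fold lower at day 4 than at day 0 (1.98 to 5.98), as PTPRC was, and CD53, a leukocyte tetraspanin, had 2, 0, 2 and 2 counts.

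The myeloid list had 12 of 24 genes tested, 6 higher and 1 lower, with a median of 0.83. Its largest difference was TLR4, the receptor for bacterial lipopolysaccharide, with 0.97, 0.785, 48.7 and 77.4 CPM. The lymphoid list had 7 of 23 tested, 2 higher and 1 lower, with a median of -0.25. Of 22 blood and endothelial regulators, 21 were tested, 15 were higher and 1 lower at day 4 than at day 0, with a median of 3.13. TAL1, for one, had 0.194, 0, 37.9 and 86.3 CPM at days 0, 2, 3 and 4, and GATA2 had 0.388, 23.9, 49.5 and 136 CPM.

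Endothelial genes were higher at day 4 too. At day 3 against day 2, 12 of 16 tested endothelial genes were higher, beside 1 of 5 tested blood genes. The share over all tested genes was 5.82%. At day 4 against day 3, 13 of 18 tested endothelial genes were higher, beside 5 of 8 tested blood genes. The share over all was then 2.96%. Under 1 CPM at both days 2 and 3 were 5 blood genes, so these counts do not show that endothelial genes rose first. Of 19 endothelial genes, 18 were tested and 17 were higher at day 4 than at day 0, with none lower and a median of 3.03. Their summed level was 508, 617, 2020 and 2949 CPM at days 0, 2, 3 and 4, and none of the 19 was at 0 at day 4. CDH5, the adhesion molecule of endothelial junctions, had 0.582, 0.196, 20.1 and 83.4 CPM, and PECAM1 had 2.13, 2.75, 7.92 and 59.6 CPM. Several of these genes are known in early blood precursors too, and the part of endothelial cells in the levels of the 10 genes was not tested. Genes of other fates were high too. Of 9 endoderm genes, 8 were higher and 1 lower at day 4 than at day 0, with a median of 3.70. Their summed level was 15.7, 2689, 379 and 423 CPM at days 0, 2, 3 and 4. CER1 alone held 2287 of the 2689 CPM at day 2, and it was the 1 gene lower at day 4. SOX17 is in the list of blood and endothelial regulators too. Among the endoderm genes, APOA1, an apolipoprotein of liver and yolk sac, had 0, 1.57, 15.8 and 79.6 CPM, and APOB had 4.85, 1.18, 8.12 and 40.0 CPM. Of 10 streak and mesoderm genes, 7 were tested and 6 were higher at day 4 than at day 0, with a median of 4.74. But 6 of the 10 were lower at day 4 than at day 2, where 7.6% of all tested genes were. Their part in the levels of the 10 genes was not tested either.

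**Figure D5:**
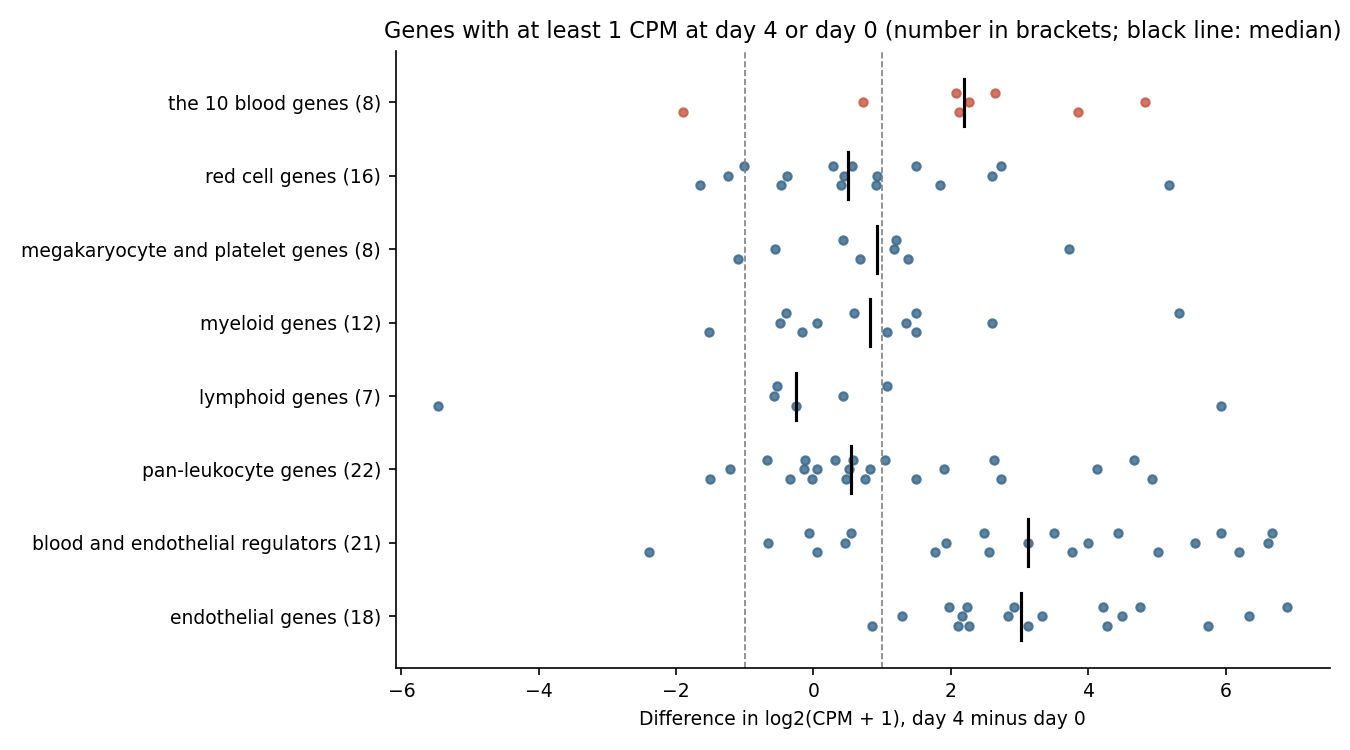
Difference in log2(CPM + 1), day 4 minus day 0, for each tested gene of the blood gene group and of each lineage list (1 library a day), with the median of each list and dashed lines at the 2-fold threshold. Regulators and endothelial genes lie mostly above 1, with medians of 3.13 and 3.03, while red cell, myeloid and pan-leukocyte lists have medians of 0.51 to 0.83.

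Partners and relatives of the factors were read in the same way. None of the 6 corepressors through which GFI1 and GFI1B act was called at day 4 against day 0, with a median of -0.07, and KDM1A had 405, 311, 272 and 294 CPM at days 0, 2, 3 and 4. MYBL1, MYBL2, EP300 and CREBBP, the relatives and coactivators of MYB, gave no call either. EP300 had 176 CPM at day 4 and 312 CPM at day 0. Of the other KLF genes, 13 of 16 were tested and 7 were higher at day 4 than at day 0, with none lower. Over all tested genes 16.1% were higher and 11.9% lower. KLF2, a factor of endothelium responsive to flow, had 0.582, 0.588, 6.57 and 8.36 CPM and was 14.4-fold higher (4.62 to 72.2). KLF5, KLF6 and KLF8 were 19.5-fold, 5.70-fold and 3.38-fold higher, and each already stood near its day 4 level or above it at day 2, unlike KLF1.

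Genes with the most similar course were ranked by distance between profiles of log2(CPM + 1), centred on their mean over the 4 days. The nearest 5 to RHAG were ARHGDIB, S100A6, MEF2C, PDLIM3 and ENG, at distances of 0.55 to 0.77, and 16 of 13199 genes lay within 1. The nearest to GFI1 were ECM1, BMP10, GNG11, SRPX2 and PRKCE, at 0.34 to 0.54, with 32 genes within 1. For GFI1B they were HOXC8, MMRN1, DDX60L, FERMT3 and PTPRB, at 0.26 to 0.53, with 36 within 1. For VAV1 they were MAMDC2, TNXB, DDX60, SH2D3C and PPM1N, at 0.51 to 0.82, with 14 of 13200 within 1. PTPRC, MYB, LCP1 and KLF1 had 1897, 1242, 649 and 460 genes within 1. Their nearest genes were CCDC181, FAM89B, ZBTB10 and LRRC4B. The number within 1 also depends on how far a gene's level spans, so it does not rank how common a course is. Each likeness rests on 4 libraries.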

How the data were processed

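RNA was sequenced as 4 TruSeq libraries, 1 a day. The submitters' processing notes name BWA, Bowtie, RSEM and hg19. Their versions are not given there, and the design text also names TopHat with Cufflinks. Per the file headers, the authors deposited an expected count, a transcript length and FPKM for each gene ID. Genes that a file does not list were set to 0. Expected counts were rounded, scaled with TMM factors of 0.981 to 1.02 (edgeR 4.0.16, R 4.3.3) and expressed as CPM. Intervals came from scipy 1.17.1, tables from pandas 2.3.3 and numpy 2.4.6, and plots from matplotlib 3.10.9, under Python 3.11.15. RefSeq (GRCh38.p14) named 19273 of 19390 IDs, and exon overlaps and transcript lengths came from GENCODE.

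The 10 genes and all lists were chosen with earlier results of these data known. Named besides the 10 were up to 4 genes of each list with the largest difference at day 4 against day 0, the 5 genes nearest in course among genes of at least 5 CPM on some day, and a few lineage markers. Some genes that this rule names are not reported here. CORO7-PAM16 and MMRN1 in the account of on and off patterns, the globins, APOB and CER1 were given with their values known. Alternatives were pseudocounts of 0.1 and 5, other scalings, other minimums, a 4-fold threshold and the deposited FPKM.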

Additional observations from a re-analysis of the deposited data

How the results depend on the processing

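No paired analysis was possible because each day has 1 library, and for the same reason no library could be left out. Of 108 counts, 85 were within 1.5 times the value reported, 23 moved and none changed direction. Of 180 log2 differences of the 10 genes, 159 stayed within the range that the 95% counting intervals of both days span, 21 moved out of it and 0 reversed. Day 2 against day 0, the blood genes called higher were 1 (not 2) with a pseudocount of 5, a minimum of 5 CPM, a 4-fold threshold or FPKM. Those called lower were 0 with the pseudocount of 5 or the 4-fold threshold and 1 with the minimum of 5 CPM or FPKM. Day 4 against day 2, a pseudocount of 0.1 gave 1 lower (PTPRC) in place of 0. Day 4 against day 0, PTPRC was the 1 gene lower, and 0 were with the pseudocount of 5 or the 4-fold threshold. Over all genes, the pseudocount of 5 gave 1231 higher and 633 lower for day 2 against day 0, 607 and 609 for day 4 against day 2, and 1560 and 1056 for day 4 against day 0. The 4-fold threshold gave 712 and 297, 357 and 215, and 981 and 538 in the same order. The counts of blood genes higher at day 4 against day 2 (6) and against day 0 (6) stayed within 1.5 times under every alternative, from 4 to 7 and from 5 to 7, with HBE1 added on FPKM. Depth limits SPI1 and HBE1, with at most 4 and 5 reads, and any gene under about 1 CPM.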

Other observations

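ZAP70, LCK and KEL each differed more between days 4 and 0, on the log2(CPM + 1) scale, than any of the 10 genes. ZAP70, the kinase of the T cell receptor, had 0, 12.8, 90.1 and 60.3 CPM at days 0, 2, 3 and 4, and day 4 exceeded day 0 at least 104-fold, against 3 counts. LCK, the kinase that acts just before ZAP70 in T cells, had 59.1, 4.12, 0.58 and 0.363 CPM and was 163-fold lower at day 4 than at day 0 (44.7 to 1350). KEL was 96.8-fold higher at day 4 than at day 0 (32.8 to 472). LCP2, of the pan-leukocyte list, was 21.1-fold higher (5.51 to 179), with 2 counts at day 0. MRC1, the mannose receptor of macrophages and some endothelia, was 14.7-fold higher (4.73 to 73.7), and AIF1, a macrophage actin-binding protein, fell by 1.52 on the log2(CPM + 1) scale.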
